A study of Homo sapiens with 4 samples.

Results

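CD9 and 8 related genes (CD37, CD53, CD63, CD81, CD82, CD151, TSPAN32 and TSPAN33) encode tetraspanins, and GATA2 occupancy around them was taken from ChIP-seq peak lists of K562 cells. The 9 genes were chosen with earlier results of these data known, and the authors had already reported GATA2 at CD9 in mitosis. The intervals around the genes were chosen by position alone on hg38. Every peak was taken that overlapped a gene body in GENCODE release 44 extended by 50 kb on each side (its window). By this rule, 24 of the 31777 asynchronous peaks and 2 of the 1648 mitotic peaks belonged to the 9 genes. K562 is an established line of chronic myeloid leukaemia that expresses endogenous GATA2. Asynchronous cells, most of them in interphase, and nocodazole-arrested cells sorted for the mitotic antigen MPM-2 were both fixed with DSG and then formaldehyde, and each gave 1 GATA2 library. Mitotic cells came from several rounds of sorting that were pooled, and by the submitters' own account a minority of asynchronous cells was left among them. No condition has a replicate, so values are described without a test. The lists give only where a peak starts and ends, and a site without a peak may lack GATA2 or lie under the limit of detection.

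Tetraspanins are small proteins that cross the plasma membrane several times and gather integrins, immunoglobulin-superfamily proteins and proteases into microdomains. In blood, CD9 marks haematopoietic stem cells, megakaryocytes and platelets and takes part in adhesion and membrane fusion. GATA2 is a zinc finger factor of haematopoietic stem and progenitor cells that recognises GATA sequences in promoters and enhancers. A factor that stays on a site through mitosis is said to bookmark it, and here an asynchronous peak is called bookmarked where it shares at least 1 base with a mitotic peak.

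Bookmarked sites were found in the windows of CD9 and TSPAN32, 1 in each, and in none of the other 7. The share of genes with a mitotic peak in such a window was 11.7% over all 20033 protein-coding genes. For the 9 tetraspanin genes it was 2 of 9, and with so few genes nothing particular to them can be read from the count. CD9, 1 of these 2, had already been listed as bookmarked by the authors. The peaks are printed on the plus strand of hg38 because they are the sites kept in mitosis. Capitals mark matches to the GATA string (NGATAN with A or T before and A or G after the GATA letters, searched on both strands) and, in the CD9 peak, also the CAG that completes a composite site described further on. The CD9 sequence is chr12:6264031-6264321 and the TSPAN32 sequence chr11:2303691-2303922.
CD9 mitotic peak: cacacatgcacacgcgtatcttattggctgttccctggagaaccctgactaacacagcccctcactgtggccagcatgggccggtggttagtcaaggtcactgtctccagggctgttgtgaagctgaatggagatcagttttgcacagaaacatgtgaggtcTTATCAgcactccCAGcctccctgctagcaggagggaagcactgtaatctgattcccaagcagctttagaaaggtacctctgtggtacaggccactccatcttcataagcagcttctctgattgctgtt
TSPAN32 mitotic peak: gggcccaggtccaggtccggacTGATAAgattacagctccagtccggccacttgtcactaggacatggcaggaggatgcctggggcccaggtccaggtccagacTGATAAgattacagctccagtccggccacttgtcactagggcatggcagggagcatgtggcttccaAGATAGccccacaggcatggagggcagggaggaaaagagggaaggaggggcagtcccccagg
The last sequence, chr12:6222748-6223047, is the central 300 bases of the asynchronous peak inside CD9, which had no mitotic peak and held the most GATA strings of the 4 peaks of this gene.
CD9 intron 1 asynchronous peak: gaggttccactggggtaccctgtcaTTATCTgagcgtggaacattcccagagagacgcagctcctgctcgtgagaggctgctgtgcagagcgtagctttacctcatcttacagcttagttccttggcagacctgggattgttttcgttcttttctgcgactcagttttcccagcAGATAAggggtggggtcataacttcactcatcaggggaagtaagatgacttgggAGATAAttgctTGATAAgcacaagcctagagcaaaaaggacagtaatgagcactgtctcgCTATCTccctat

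CD9 (ENSG00000010278) is read from the plus strand and spans bases 6199715 to 6238271 of chromosome 12. Its window held 4 asynchronous peaks, of which 1 was in the gene and 3 were beyond its 3′ end. The first, from 6222649 to 6223146, was in intron 1 of the canonical transcript, 23.2 kb from the 5′ end of the gene. It was 498 bp wide and held 5 GATA strings, and 9.21% of all asynchronous peaks held 5 or more. The nearest of the 22 annotated CD9 start sites was 1118 bp away. The next, from 6253186 to 6253686, was 501 bp wide with 1 GATA string and lay 14914 bp past the gene. Another, from 6262475 to 6263014, was the widest of the gene with 540 bp and 2 GATA strings. The bookmarked peak, from 6263945 to 6264435, followed it at 1445 bp from centre to centre and 25673 bp past the gene. It was the narrowest of the 4, with 491 bp, and had 1 GATA string. All 4 peaks were closer to a CD9 start site than to that of any other protein-coding gene, and none lay within 1 kb of a CD9 start site.

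**Figure D1:**
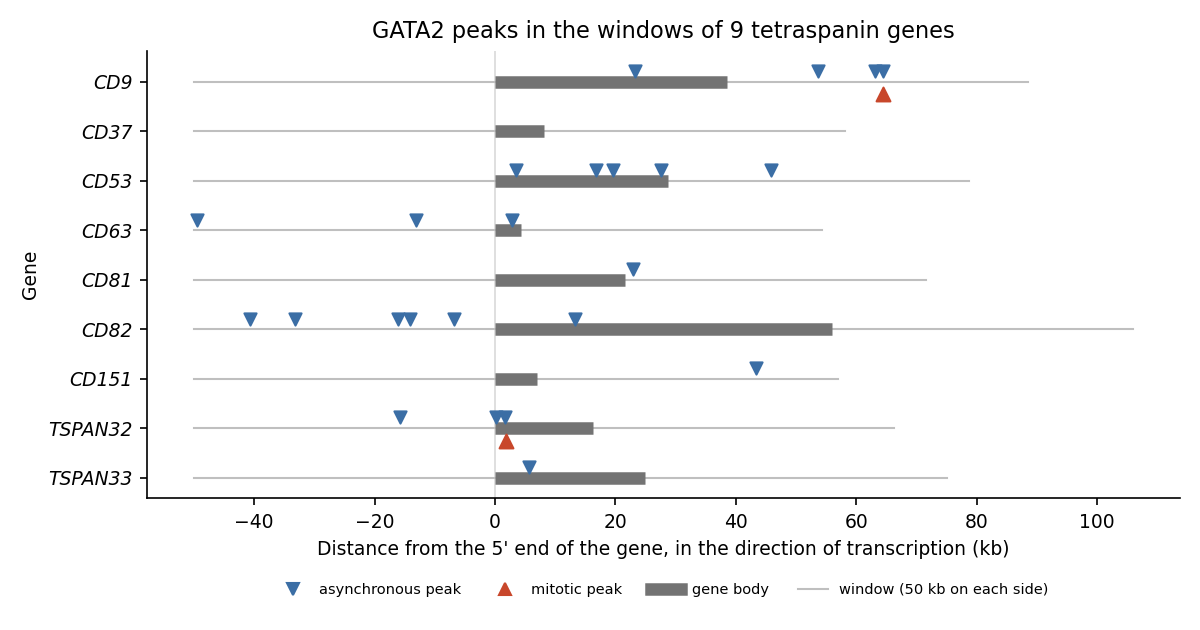
Positions of the 24 asynchronous peaks (blue) and 2 mitotic peaks (red) along the windows of the 9 genes, by distance of the peak centre from the 5′ end of the gene in kb. The mitotic peak of CD9 lies 64.5 kb from the 5′ end, past the gene, and that of TSPAN32 at 1.81 kb, inside the gene, while the line of CD37 carries no peak.

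The mitotic CD9 peak, 291 bp wide, lay wholly inside its asynchronous peak and covered 59.3% of it, with centres 14 bp apart. The only GATA string of both peaks was TGATAA on the minus strand, from 6264193 to 6264198, 20 bp from the centre of the mitotic peak. It was part of a GATA:E-box composite, searched as CTG followed by GATAA after a gap of 8 bases on either strand, which is the arrangement bound by GATA factors together with TAL1 complexes. The composite ran from 6264193 to 6264208 on the minus strand and was the only match among the 24 peaks. Over all 31777 asynchronous peaks it was present in 8.55%. Of those with it 9.46% were bookmarked, and of those without it 4.62%. The number of GATA strings was compared as well. Genome-wide, 2.07% of asynchronous peaks with exactly 1 string and 13.7% of those with exactly 5 were bookmarked. In CD9 the peak with 1 string was kept and the intronic peak with 5 was not. Most peaks with 5 strings were not bookmarked genome-wide either, and 1 pair of peaks shows no trend. Neither genome-wide comparison was matched for width, and the median width was 674 bp for bookmarked asynchronous peaks and 367 bp for the rest. In width the 4 CD9 peaks ranged from 491 to 540 bp. Of the 4919 asynchronous peaks within 50 bp of the bookmarked peak in width, 241 were bookmarked, or 4.90%. Why this peak of the 4 was kept was not tested.

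**Figure D2:**
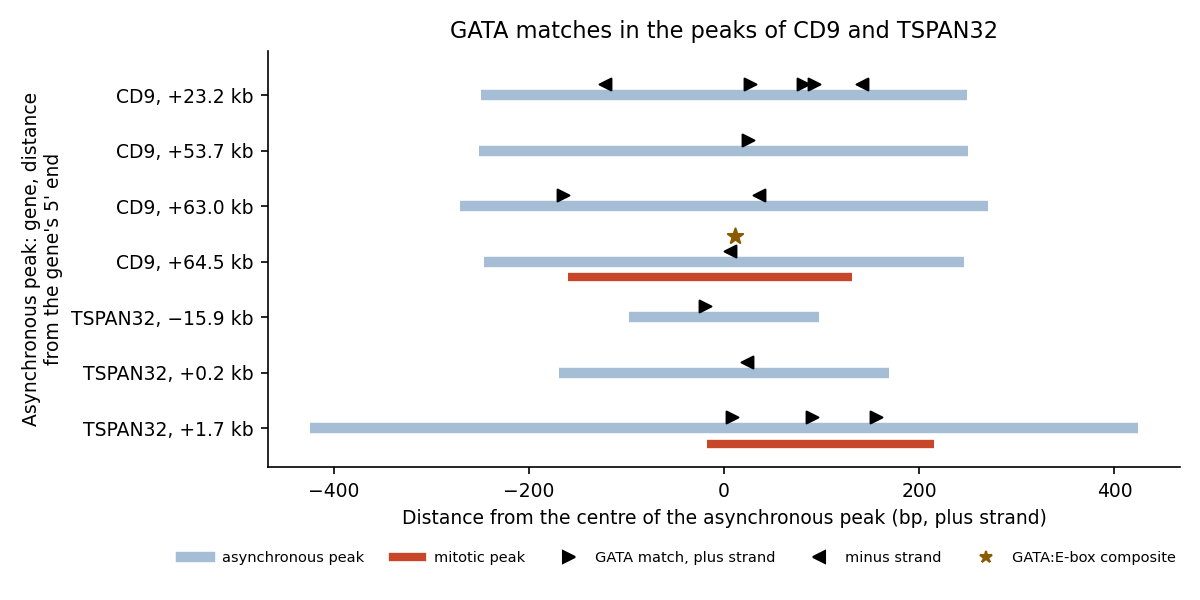
GATA strings (triangles, pointing right for the plus and left for the minus strand) in the asynchronous peaks (blue bars) of CD9 and TSPAN32, by distance from the peak centre in bp, with the mitotic peaks (red bars) and the composite site (star). The bookmarked CD9 peak carries 1 string, within the composite, and the bookmarked TSPAN32 peak carries 3, all inside the mitotic peak.

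TSPAN32 (ENSG00000064201), a tetraspanin of haematopoietic cells, spans bases 2301997 to 2318204 of chromosome 11 (plus strand). The 3 asynchronous peaks of its window differed widely in width. A peak of 195 bp, from 2286036 to 2286230, lay 15766 bp upstream of the gene and closer to the start of ASCL2. A peak of 339 bp, from 2302018 to 2302356, covered an annotated start site, and its centre was in coding exon 1 of the canonical transcript. The bookmarked peak, from 2303284 to 2304132, was in intron 2 and, with 849 bp, wider than 96.3% of all asynchronous peaks. The closest protein-coding start site, 235 bp away, was that of C11orf21, a gene on the opposite strand from 2295628 to 2303049 that overlaps the start of TSPAN32. The mitotic peak was 232 bp wide and covered 27.3% of the asynchronous peak, with its centre 99 bp to the right of the other. All 3 GATA strings of the wide peak (TGATAA at 2303713, TGATAA at 2303795 and AGATAG at 2303861) fell inside this mitotic part. Of the 733 asynchronous peaks within 50 bp of its width, 183 were bookmarked, or 24.97%.

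In the printed sequence the first 2 GATA strings of TSPAN32 sit in an imperfect direct repeat. When the reference was set against itself with a shift of 82 bp, 84 of 90 compared bases were equal (93.3%), from 2303676 to 2303765 in the first copy and from 2303758 to 2303847 in the other. The stretch was chosen after the sequence had been seen. Only uniquely mapped reads had been kept by the authors, and the effect of the repeat on the peak was not tested.

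CD53, CD37 and TSPAN33 are tetraspanins of blood cells. CD53 (ENSG00000143119), a leukocyte tetraspanin on chromosome 1 from 110871188 to 110899922, had 5 asynchronous peaks and 38.8 peaks per Mb of its window, and none was bookmarked. Introns 1 and 7 of the canonical transcript held 4 of them, 3 in intron 1. The widest of the 24 peaks, from 110874285 to 110875151, was in intron 1 with 867 bp, 2 GATA strings, 1 RUNX string (AACCACA) and 1 E-box (CAGCTG). It was wider than the bookmarked peak of TSPAN32 and yet overlapped no mitotic peak. Of the 651 asynchronous peaks within 50 bp of its width, 174 were bookmarked, or 26.7%. The other 4 peaks of CD53 ranged from 203 to 672 bp and held 2 or 3 GATA strings each. CD37 (ENSG00000104894), which is found mainly on B cells, had no peak of either list in its window on chromosome 19. Its nearest asynchronous peak lay 54656 bp from the gene and its nearest mitotic peak 456187 bp. TSPAN33 (ENSG00000158457), an erythroid and B-cell tetraspanin that binds the protease ADAM10, had 1 asynchronous peak, from 129150078 to 129150584 on chromosome 7, in intron 1. This peak of 507 bp held 2 GATA strings, 1 RUNX string and 4 E-boxes, the most E-boxes of the 24 peaks, and the nearest mitotic peak was 326330 bp from the gene.

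The remaining members, CD63, CD81, CD82 and CD151, are expressed in many tissues. CD82 (ENSG00000085117), a suppressor of cell motility encoded by bases 44564427 to 44620358 of chromosome 11 (plus strand), had the most asynchronous peaks of the 9 genes, 6. Of these, 5 lay upstream, from 6694 to 40451 bp before the gene, and 1 was in intron 1. Their widths were 433, 433, 496, 234, 187 and 276 bp in the order of the chromosome, and their GATA strings numbered 1, 1, 0, 1, 0 and 3. The peaks without a GATA string, from 44547999 to 44548494 and from 44557546 to 44557732, were the only such peaks among the 24. CD82 was the nearest protein-coding gene of all 6, but the mitotic peak closest to it was 105945 bp away, at TSPAN18.

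CD63 (ENSG00000135404), a protein of late endosomes and platelet granules, spans bases 55725323 to 55729707 of chromosome 12 (minus strand). Its window held 3 asynchronous peaks. A peak of 192 bp, from 55726817 to 55727008, had its centre in coding exon 4 and held 2 GATA strings. A peak of 380 bp, from 55742710 to 55743089, lay 13002 bp upstream of CD63 and 33 bp from a start site of GDF11. The last, from 55779009 to 55779345, was 337 bp wide, lay in an intron of SARNP and held 7 GATA strings, the most of the 24 peaks. At least 7 strings were present in 3.06% of all asynchronous peaks. CD81 (ENSG00000110651), a tetraspanin of many cell types, had 1 asynchronous peak of 316 bp with 1 GATA string, 1204 bp past its 3′ end and 1166 bp from the start of TSSC4. CD151 (ENSG00000177697), which associates with laminin-binding integrins, also had 1, of 590 bp with 2 GATA strings, which lay 36183 bp past the gene in intron 10 of CHID1. The windows of CD81 and TSPAN32 on chromosome 11 overlapped by 42028 bp and shared no peak.

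**Figure D3:**
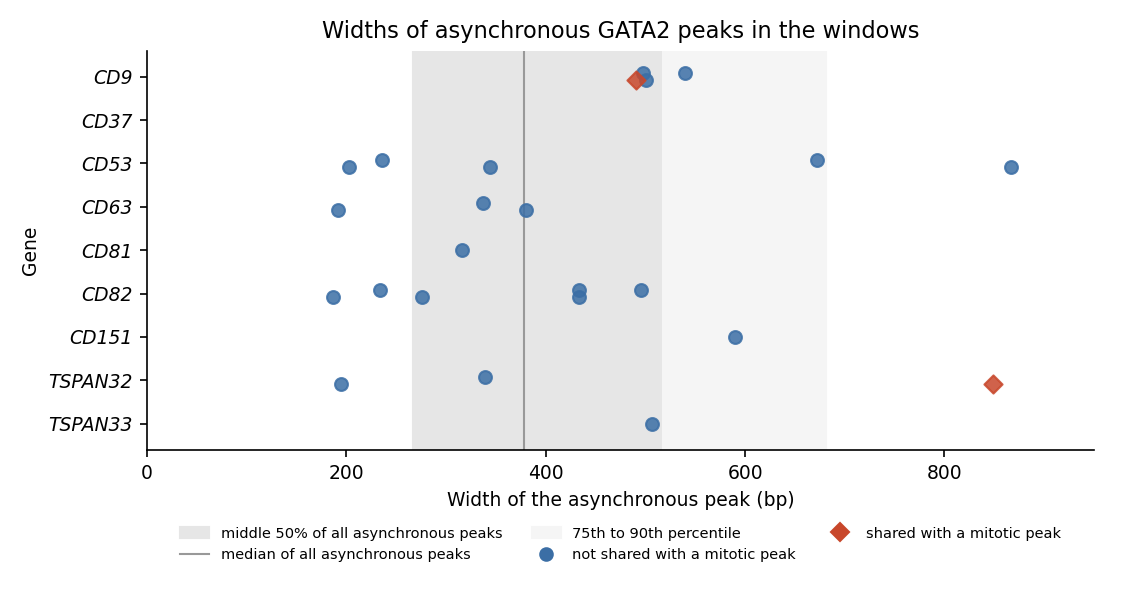
Widths in bp of the asynchronous peaks in the window of each gene (points, offset vertically where a gene has several), with the median (line) and the 25th to 75th and 75th to 90th percentiles (shading) of all asynchronous peaks. The bookmarked peaks (red diamonds) measure 491 bp for CD9 and 849 bp for TSPAN32, and the widest peak shown, 867 bp at CD53, is not bookmarked.

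Asynchronous peaks were present in 8 of the 9 windows, and in those of 76.0% of all protein-coding genes. The median number was 3 per window for the 9 genes and 2 for all protein-coding genes, with 21.7 and 16.6 peaks per Mb of window. The 24 peaks had a median width of 406.5 bp (187 to 867 bp), against 378 bp for the whole list. A GATA string was present in 22 of the 24, or 91.7% (95% exact binomial interval 73.0% to 99.0%), and in 93.0% of all asynchronous peaks. They held a mean of 1.96 ± 1.52 GATA strings (SD over 24 peaks), and all asynchronous peaks 2.51 ± 2.99 (SD over 31777 peaks). The median was 2 strings in both sets, and the highest number in the whole list was 125. The median GC content was 50.3% against 44.1%, and was highest for the 3 TSPAN32 peaks (median 62.2%) and lowest for the 5 CD53 peaks (40.7%). The intervals cover counting error over peaks only.

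Strings of other haematopoietic regulators were spread over the peaks with no shared set. The RUNX string occurred in 4 of the 24 peaks (16.7%, interval 4.74% to 37.4%), 1 each at CD53, TSPAN33, TSPAN32 and CD82, and in 13.6% of all asynchronous peaks. The ETS string AGGAAGT occurred in 2 (8.33%, interval 1.03% to 27.0%), at CD53 and CD82, beside 14.9% of all. The AP-1 strings TGACTCA and TGAGTCA occurred in 3 (12.5%, interval 2.66% to 32.4%), at CD53, TSPAN32 and CD82, beside 13.04%. The E-box CAGCTG, which reads the same on both strands, occurred in 9 (37.5%, interval 18.8% to 59.4%), beside 24.1%. For each string the share in all asynchronous peaks lay inside the interval of the 24. Neither bookmarked peak held a RUNX, ETS, AP-1 or CAGCTG string, and matches describe letters of the reference, not binding by these factors.

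Within 3 kb of an annotated start site of the gene, an asynchronous peak was present for 5 of the 9 genes (CD9, CD53, CD63, CD81 and TSPAN32), and for 26.4% of all protein-coding genes. The start of any transcript counts here, and CD9 has 22 start sites, CD81 17, CD63 16, TSPAN32 15 and CD53 6. The CD9 peak lay 23.2 kb from the 5′ end of its gene, and the CD81 peak past the 3′ end. With 9 genes no difference from the share of all genes can be read. In total 7 peaks lay within 3 kb of such a start site, and the distance fell within 1 kb for 3 of them, at CD63 and TSPAN32. By the same rule, a mitotic peak was present for TSPAN32 alone, and for 1.61% of all protein-coding genes. Of the other 17 asynchronous peaks, 8 lay upstream, 5 downstream and 4 elsewhere in the gene body. RefSeq promoter sequences (GRCh38.p14, from 250 bases before to 50 after the start) were listed for CD9, CD53, CD63, CD82 and TSPAN33. None of these overlapped a peak, but the share of all listed promoters that did is not given. TSPAN32, where a peak covered an annotated start site, was not among the listed genes. A GATA string was present in 24.97% of all 35116 listed promoters and in 3 of the 16 listed for the 5 genes, or 18.8%. These were 2 of 4 for CD9 and 1 of 8 for CD63, with none for CD53, CD82 or TSPAN33. Several of the CD63 promoters overlap one another.

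In total, 2 of the 24 asynchronous peaks were bookmarked, or 8.33% (95% exact binomial interval 1.03% to 27.0%), beside 5.04% of all asynchronous peaks, a value inside the interval. Without CD9, which the authors had already listed as bookmarked, the share was 5.00%, and without TSPAN32 4.76%, so each gene decides the value. With reciprocal overlap of at least 50% the CD9 peak alone of the 24 was bookmarked, 4.17%, beside 2.02% of all asynchronous peaks by the same rule. The TSPAN32 site was given to C11orf21 rather than TSPAN32 when peaks went to the nearest protein-coding start site. This left CD9 as the only gene of the 9 with a mitotic peak. The share of all protein-coding genes under this rule is not given, so that count stands without a comparison.

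The number of asynchronous peaks in a window went with the share that had a mitotic peak across protein-coding genes, from 2.73% of genes with 1 asynchronous peak to 26.1% of genes with 6. Among genes with 4 peaks, as CD9 has, 17.9% had a mitotic peak, and among genes with 3, as TSPAN32 and CD63 have, 13.1%. CD53 and CD82 had more asynchronous peaks than either bookmarked gene and no mitotic peak. The share with a mitotic peak was 22.7% for genes with 5 peaks, as CD53 has. Most genes with as many peaks as CD53 or CD82 thus had none. The counts of CD9, 4 asynchronous and 1 mitotic, were shared by 315 other protein-coding genes. Those closest to CD9 in gene length (38557 bp) were CSPG4 (38527 bp), PMS2 (38206 bp) and PRKAA1 (38986 bp), whose mitotic peaks lay inside the gene, 47543 bp and 3752 bp from it. This likeness rests on counts in 2 libraries.

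**Figure D4:**
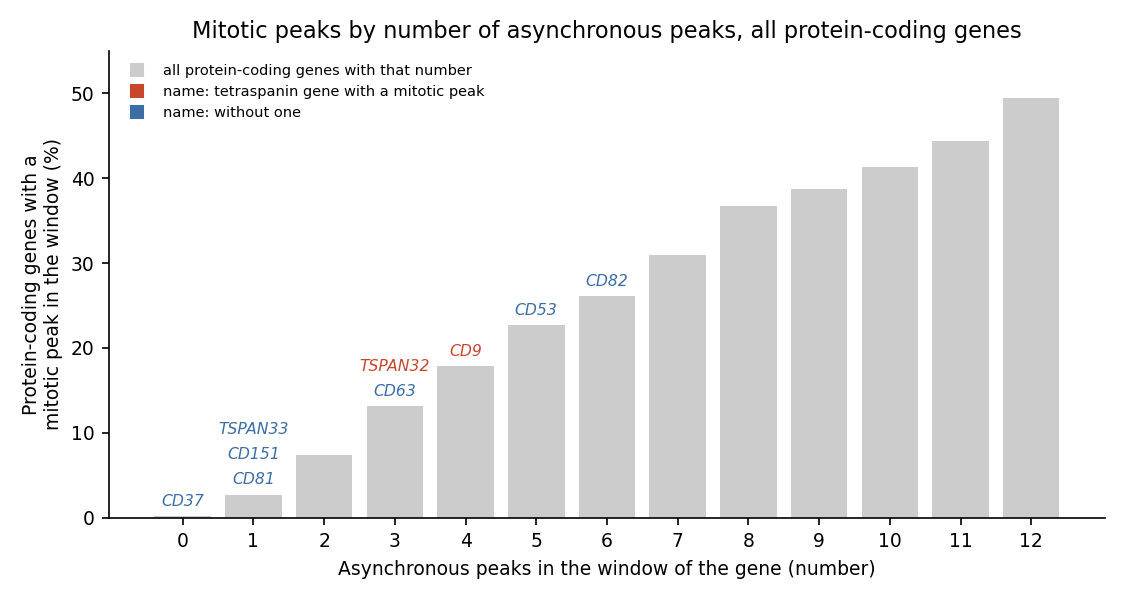
Percent of protein-coding genes with a mitotic peak in the window (bars), by number of asynchronous peaks in the same window, with the 9 tetraspanin genes written above the bar of their own number. The bars rise from 2.73% at 1 peak to 26.1% at 6, and CD9 (4 peaks) and TSPAN32 (3 peaks) are the genes with a mitotic peak.

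The other 24 human tetraspanin genes give the family as a whole. An asynchronous peak was present in 22 of their windows, beside 76.0% of those of all protein-coding genes. A mitotic peak was present in 5, or 20.8%, beside 11.7%. With so few genes no trait of the family can be read from these counts. The highest numbers of asynchronous peaks were those of TSPAN5 (11), which guides ADAM10 to the cell surface, TSPAN18 (9), and TSPAN13 and TSPAN14 (8 each). TSPAN18, which neighbours CD82, had 2 mitotic peaks, a peak of 360 bp with 2 GATA strings that covered a start site and another of 281 bp with 4 strings 38847 bp from the gene. TSPAN7 on the X chromosome had a mitotic peak of 421 bp in intron 1 with 2 GATA strings and, like that of CD9, a GATA:E-box composite. The mitotic peak near TSPAN1 was 222 bp wide and lay 18312 bp from the gene. Those of TSPAN17 (479 bp, no GATA string) and ROM1 (376 bp, 1 GATA string) were wider than the asynchronous peaks under them (420 and 249 bp) and had GPRIN1 and TUT1 as their nearest genes. The peak counted for CD151 was also the only asynchronous peak in the window of TSPAN4.

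Among 15 proteins known to bind tetraspanins, only the gene of IGSF8, an immunoglobulin-superfamily partner of CD9 and CD81, had a mitotic peak in its window. This was 6.67% of the list, beside 11.7% of all protein-coding genes, and too few genes to read a difference. The mitotic peak lay 44511 bp from IGSF8, in intron 1 of KCNJ10. Asynchronous peaks were present for 14 of the 15, beside 76.0% of all protein-coding genes. The highest numbers were those of CD47 (10) and the integrin genes ITGB3 (9) and ITGB1 (8). ITGA6, which encodes the CD49f integrin chain, and ADAM10 had 6 each and no mitotic peak. CD44 had no peak of either list.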

How the data were processed

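GATA2 ChIP-seq peak lists of asynchronous and mitotic K562 cells, 1 library each, were used. Input libraries were not used here. Per the labels and the methods of the study, the authors aligned reads to hg38 with BWA 0.7.12, kept uniquely mapped reads, called peaks with MACS2 2.1.0 and Genrich 0.6.1 and removed those on the ENCODE blacklist. How both callers were combined and their thresholds are not given in the sources used here. The deposited values are peak starts and ends in bp, with no score, read count or depth, so a stricter threshold could be stood in for only by width.

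Coordinates are printed with the first base as 1. Genes are those of GENCODE release 44, and exon and intron numbers those of the Ensembl canonical transcript at the peak centre. Strings were matched on both strands of the hg38 reference. Matches of 1 string could not overlap, also where they lay on opposite strands, and the first was kept. Peaks were given to the gene with the nearest start site in an alternative. Shares carry exact binomial intervals at 95%. With 1 library per condition no test was made. Genes were named by rule: the 9 genes, the genes of both other lists with a mitotic peak or with most asynchronous peaks, the gene nearest to each mitotic peak, and 3 genes with the counts of CD9 and the closest length. ITGA6, ADAM10, CD44 and TSPAN4 were named after their values had been seen, as were the genes nearest to asynchronous peaks. The 9 genes, the lists and the settings were chosen with earlier results of these data known. The overlap, window, string and annotation steps were tested on simulated data. Scripts ran under Python 3.11.15. Intervals came from scipy 1.17.1, tables from pandas 2.3.3 with numpy 2.4.6, reference bases from pysam 0.24.0 and plots from matplotlib 3.10.9.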

Additional observations from a re-analysis of the deposited data

How the results depend on the processing

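Of 40 alternative values for 12 results, 28 stayed within the counting interval of the value or, for counts, within 1.5 times. This tally says little about robustness. The interval of the bookmarked share was wide (1.03% to 27.0%). Counting each peak once for each gene could change nothing, because no windows shared a peak. With windows of 10 kb, the 9 genes held 12 asynchronous peaks and 1 mitotic peak, 1 gene of the 9 had a mitotic peak (TSPAN32), the CD9 window held 1 asynchronous and 0 mitotic peaks, 2 of the other tetraspanin genes had a mitotic peak and 0 of the partner genes did. With windows of 100 kb, 5 partner genes had a mitotic peak. No share over all protein-coding genes is given here for windows of 10 or 100 kb, so these counts stand without a comparison. By the nearest protein-coding start site, 1 mitotic peak was given to 1 gene of the 9 (CD9), also without a share over all protein-coding genes. At or above the median width, 13 asynchronous peaks were left, with all 4 of CD9 among them. Within 1 kb of a start site, 3 asynchronous peaks were left of 7. The share of bookmarked peaks ran from 4.17% (reciprocal overlap) to 15.4% (at or above the median width), beside 2.02% and 9.65% of all asynchronous peaks under the same settings. Leaving out TSPAN32 was chosen after seeing the data. The mean number of GATA strings ran from 1.46 (central 200 bp of each peak only) to 2.17 (whole peaks in windows of 10 kb). These settings count unlike stretches, and values for the whole list under them are not given. These counts are small, and the depth behind each list is unknown. No paired analysis was possible because each condition has 1 library.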

Other observations

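The limit of 50 kb decided the place of several peaks. The asynchronous peak of 337 bp in SARNP lay 49301 bp from CD63, just inside. Just outside were an asynchronous peak of 270 bp 52872 bp upstream of TSPAN32, nearest to ASCL2, and a peak of 391 bp 54656 bp from CD37, which lay 60 bp from a start site of KASH5. Another peak, of 415 bp, lay 58398 bp upstream of CD82 and was still nearest to CD82. Beyond the CD9 window, a peak of 289 bp lay 59 bp from a start site of PLEKHG6 and a peak of 430 bp 3872 bp from one of TNFRSF1A, and neither was bookmarked. At 100 kb the TSPAN32 mitotic peak also fell in the window of CD81, 72254 bp from that gene.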
